A study of Mus musculus with 4 samples.

Results

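Integrins and partner adhesion molecules hold a thymocyte to the cells and matrix of the thymus. The 10 genes described here encode 3 integrin beta chains (*Itgb1*, *Itgb2*, *Itgb7*), 5 integrin alpha chains (*Itga4*, *Itga6*, *Itgal*, *Itgae*, *Itgav*), the integrin ligand *Icam2* and the hyaluronan receptor *Cd44*. They were taken by gene symbol from the 24421 genes listed in the table. The rule uses no measured value, but the genes were chosen with earlier results of these data known. All 10 were listed and passed the filter on low values, at least 1 FPKM (fragments scaled by gene length and by a total set for each sample) in 2 or more of the 4 samples, and each was also above that level in all 4 samples.

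The samples were CD69+CD4+CD8+ (CD69+DP) thymocytes, cells that had received a TCR signal, sorted from the thymus of C57BL/6 mice of 6 weeks. The 2 control samples came from Foxa1fl/flFoxa2fl/fl CD4Cre- mice and the 2 Foxa1/2cKO samples from Foxa1fl/flFoxa2fl/fl CD4Cre+ mice, so both groups carried the floxed alleles and only the Foxa1/2cKO carried Cre, driven by the *Cd4* promoter. The Cre transgene was absent from the controls, so an effect of Cre itself and of the deletion cannot be told apart. No mouse gave cells to more than 1 sample, and a sort used 2 mice of each genotype. Whether a sample holds pooled cells of 2 mice is not given in the sources used here.

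An integrin is a dimer of 1 alpha and 1 beta chain that switches between a closed and a ligand-binding shape when the cell is stimulated, among others through the TCR and chemokine receptors. The chains are shared between dimers: the alpha L chain pairs with beta 2 to form LFA-1, the receptor for ICAMs, the alpha 4 chain pairs with beta 1 or beta 7, and the alpha E chain pairs with beta 7 to bind E-cadherin on epithelium. In the thymus, integrins take part in contacts with cortical and medullary epithelium and in the movement of cells between these regions. The comparison asks whether the transcripts of this machinery differ in cells undergoing positive selection without Foxa1 and Foxa2.

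The alpha 4 gene *Itga4* was higher in both Foxa1/2cKO samples by a like amount, 38% by the means, but the difference did not pass the threshold once adjusted over all genes. The genes of the alpha E beta 7 pair, *Itgae* and *Itgb7*, lay above the controls in 1 Foxa1/2cKO sample and below them in the other. *Cd44* split in the same way, and *Icam2* split the other way round. The remaining genes differed by 16.0% or less between the group means. By limma, with Benjamini-Hochberg adjusted p-values and a threshold of 0.05, none of the 10 genes was called, 1 (*Itga4*) had an unadjusted p under 0.05, and limma-voom on recovered reads gave the same counts of 0 and 1. Over all 10776 genes tested, 0.00928% passed the adjusted threshold (1 gene, the long non-coding RNA *2610035D17Rik*) and 4.55% the unadjusted one (258 higher and 232 lower, or 220 and 315 when FPKM were rescaled to the reads on listed genes).

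The samples held 10463454 to 14572726 reads on listed genes, as recovered from the steps between the values, and the 2 targeted genes *Foxa1* and *Foxa2* were listed at 0 in all 4 samples, and thus cannot serve as a check of genotype. Reads on listed genes were 96.9% to 97.4% of the total that scales the FPKM in 3 samples and 102% in Foxa1/2cKO 2, so FPKM of that sample stand higher per read than those of the others. Foxa1/2cKO 2 stood apart on the first principal component (28.5, against -11.0 to -7.42 in the others). Genes of the DP stage and of the sort gate were present in every sample, with summed FPKM of 2814 and 2903 in the controls, against 2912 and 3568 in Foxa1/2cKO 1 and 2. Summed FPKM of 5 cycling genes, led by *Top2a* and *Mki67*, was 305 and 321 in the controls, against 365 and 111 in Foxa1/2cKO 1 and 2. In a list of 6 mature SP genes, *Ccr7*, *S1pr1*, *Il7r* and *Klf2* were also at their lowest in Foxa1/2cKO 2, while *Ccr4* was at its highest there. Since 2 samples make a group, an exact permutation test over samples cannot give a two-sided p under 0.333. Intervals on reads cover counting error only. A p-value from limma sets the group difference against a spread estimated from these samples and, in part, from all genes tested. In sorted pools of cells, fewer cells with a transcript and less of it per cell cannot be told apart.

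The levels of the 10 genes spanned from 4.74 to 299.6 FPKM, on 246 to 19987 reads per gene and sample. In the controls the order by mean FPKM, which is a level per length, was *Itgal* (254), *Itgb2* (234), *Icam2* (80.4), *Itgb1* (51.96), *Itgb7* (49.0), *Itga4* (22.3), *Itga6* (14.9), *Itgae* (8.001), *Cd44* (6.43) and *Itgav* (4.80). Both LFA-1 genes were thus within the top 1.68% of the genes tested, and *Itgav* at 78.4% from the top. The controls of neighbours in this order did not overlap. The order changed in the Foxa1/2cKO samples for genes of similar level: *Itgb7* stood above *Itgb1* in Foxa1/2cKO 1, and *Itgae* stood below *Itgav* in Foxa1/2cKO 2, level with *Cd44* there within the 95% Poisson intervals of their reads (4.26 to 5.50 and 4.26 to 5.36 FPKM).

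**Figure D1:**
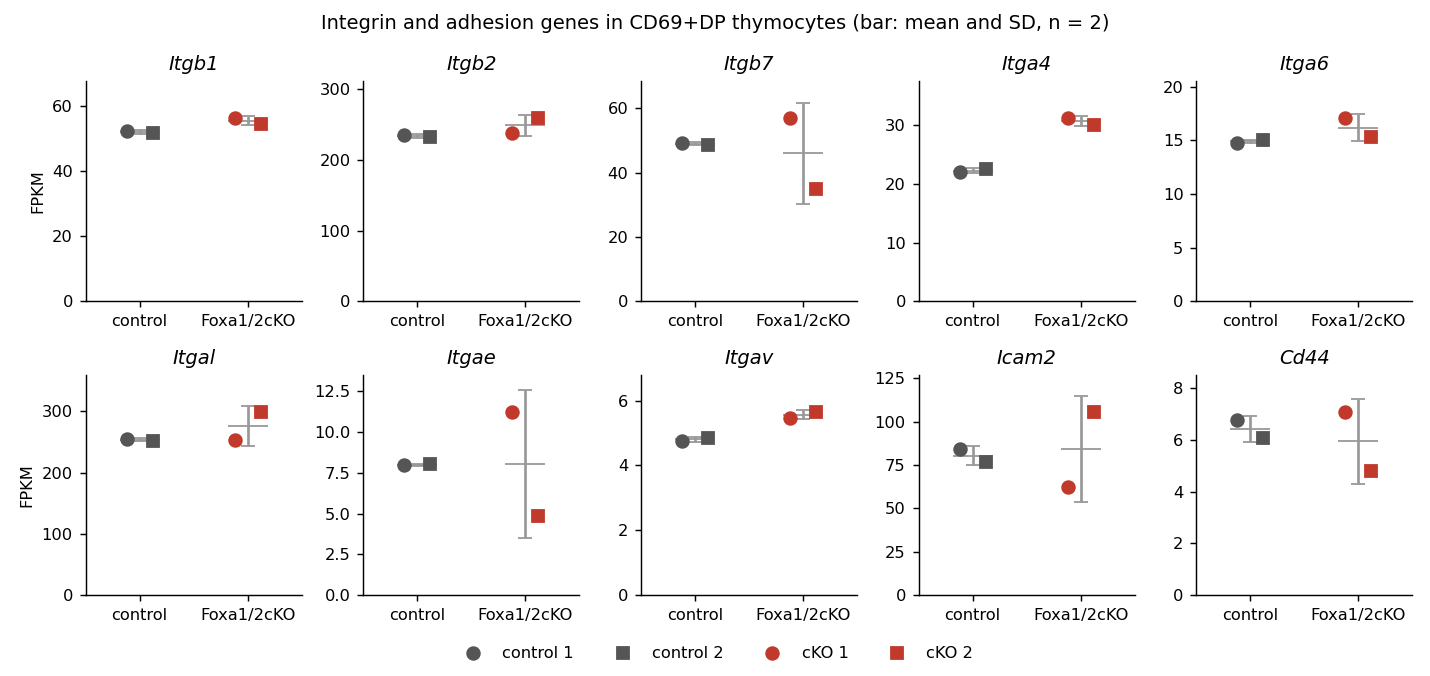
FPKM (vertical axis, from 0, a separate scale per gene) of the 10 genes in the 2 control (grey) and 2 Foxa1/2cKO (red) samples, with circles for sample 1, squares for sample 2, and the mean and SD of each group (n = 2). *Itga4* is higher in both Foxa1/2cKO samples (31.3 and 30.1, against 21.98 and 22.5), while *Itgae*, *Itgb7*, *Icam2* and *Cd44* split between the 2 Foxa1/2cKO samples.

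Among the beta chains, *Itgb1* (chromosome 8 of mm10, 128685654 to 128733200) encodes the chain shared by the laminin, fibronectin and VCAM-1 receptors. Its FPKM was 52.4 in control 1, 51.5 in control 2, and 56.4 and 54.4 in Foxa1/2cKO 1 and 2, from 2533 to 3288 reads. Both Foxa1/2cKO samples were above both controls, and the means of 51.96 ± 0.588 and 55.4 ± 1.36 (SD, n = 2 each) differed by 6.62%. The log2 fold change on FPKM + 1 was 0.09 (95% interval -0.12 to 0.30). With FPKM rescaled to the reads on listed genes it was 0.06, and Foxa1/2cKO 2 fell between the controls (52.4, against 52.9 and 52.3).

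*Itgb2* (chromosome 10, 77530252 to 77565708), the leukocyte-restricted chain of LFA-1, was at 236 FPKM in control 1, 232 in control 2, and 238 and 260 in Foxa1/2cKO 1 and 2. The Foxa1/2cKO samples again lay above the controls, by little in the first and by more in the second. The log2 fold change of *Itgb2* was 0.09 (95% interval -0.15 to 0.33), and it was 0.02 without Foxa1/2cKO 2 and 0.15 without Foxa1/2cKO 1.

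*Itgb7* (chromosome 15, 102215995 to 102231944), whose product pairs with alpha 4 in the gut-homing receptor and with alpha E, was at 49.3 and 48.7 FPKM in the controls. The values were 57.1 and 34.9 in Foxa1/2cKO 1 and 2, from 1648 and 1035 reads. The controls were nearly equal and the 2 Foxa1/2cKO samples lay on either side of them. On the log2 scale the difference was -0.13, with a 95% interval of -0.76 to 0.50 and an adjusted p of 0.923 by limma. It was 0.22 without Foxa1/2cKO 2 and -0.48 without Foxa1/2cKO 1. In each of these fits the lone Foxa1/2cKO sample is assumed to vary like the controls.

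The alpha 4 chain gives lymphocytes their receptors for VCAM-1, fibronectin and MAdCAM-1. *Itga4* (chromosome 2, 79255426 to 79333123, plus strand) had an FPKM of 21.98 in control 1 and 22.5 in control 2, and of 31.3 and 30.1 in Foxa1/2cKO 1 and 2, from 3008 to 3321 reads. The groups did not overlap, and the samples within each group differed by a small part of the distance between the groups. The means were 22.3 ± 0.391 and 30.7 ± 0.852 FPKM (SD, n = 2 each), a ratio of 1.38. On the log2 scale of FPKM + 1 the fold change was 0.45 (standard error 0.08, 95% interval 0.23 to 0.67, unadjusted p = 0.00383, limma's Benjamini-Hochberg adjusted p = 0.863). By its p *Itga4* ranked 32 among the genes tested. Leaving out any one of the 4 samples gave 0.42 to 0.47. The adjusted p of *Itga4* from limma was then 1.0 without control 1, 0.9999 without control 2, 0.0969 without Foxa1/2cKO 2 and 0.0108 without Foxa1/2cKO 1, where 2559 of the 10776 genes passed. Rescaled to the reads on listed genes, the difference was 0.41.

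In the *Itga4* gene model, the counted length of 9832 bases was the longest of the 10 genes. The 2004 tested genes over 5000 bases had a median log2 fold change of 0.05, and 30.3% of them had both Foxa1/2cKO samples above both controls, against 16.3% of the 8770 genes up to 5000 bases. The part of length in the *Itga4* difference was not tested. Exons of *Itga4* also overlap those of *Cerkl*, which lies on the opposite strand, and the strand setting of the gene counts is not given in the sources used here, while the methods state that exons of the same alignments were counted without strand. *Cerkl* had 60 and 63 reads in the controls, against 27 and 84 in Foxa1/2cKO 1 and 2, and their part in the *Itga4* values was not tested. Of the 50-base stretches of the longest *Itga4* transcript, 10.9% also occur in other annotated genes, *Cerkl* among them.

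The RefSeq table of promoters held 5 of the 10 genes (*Itgb1*, *Itgb7*, *Itga4*, *Itgav* and *Cd44*). Those of *Itga4* and *Itgb7* are shown because they encode chains of the same dimer but differed in how the Foxa1/2cKO samples lay: *Itga4*, high in both, and *Itgb7*, on either side of the controls. The 250 bases before the start of each gene are given 5′ to 3′ on the strand of the gene, from RefSeq on GRCm38.p6, at chr2:79255176-79255425 on the plus strand for *Itga4* and at chr15:102231936-102232185 on the minus strand for *Itgb7*. Capitals mark matches to the motifs searched.
*Itga4*: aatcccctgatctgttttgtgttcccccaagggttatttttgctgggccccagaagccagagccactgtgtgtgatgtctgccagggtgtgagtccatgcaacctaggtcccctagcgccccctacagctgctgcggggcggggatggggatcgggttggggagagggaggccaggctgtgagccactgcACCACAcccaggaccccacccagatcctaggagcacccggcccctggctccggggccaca
*Itgb7*: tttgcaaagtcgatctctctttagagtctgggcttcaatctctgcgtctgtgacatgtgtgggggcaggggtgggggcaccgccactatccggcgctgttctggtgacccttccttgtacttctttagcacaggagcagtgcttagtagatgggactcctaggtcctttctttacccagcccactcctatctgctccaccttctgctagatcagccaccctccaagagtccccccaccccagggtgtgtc

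The motifs were the forkhead core TGTTTAC, its variant TGTTTGC, the RUNX core TGTGGT and the ETS core CGGAAG, each on both strands of the 300 bases around the start. The forkhead core was in none of the 5 promoters and in 3.65% of all 32851, and its variant was in none and in 5.07%. *Itga4* held 1 RUNX core on the reverse strand, at 60 bases before the start, a motif found in 16.8% of all promoters. *Itgav* held 1 ETS core, found in 16.9%. No match in these windows says only that these letters are not there.

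*Itga6* (chromosome 2, 71745616 to 71858416), the alpha chain of a laminin receptor, was at 14.8 and 15.0 FPKM in the controls, against 17.1 and 15.3 in Foxa1/2cKO 1 and 2. Foxa1/2cKO 1 stood clear of the controls and Foxa1/2cKO 2 was just above them. For *Itga6* the log2 fold change was 0.11 (95% interval -0.15 to 0.37), and 0.03 without Foxa1/2cKO 1. Under the rescaling to reads on listed genes Foxa1/2cKO 2 was below both controls for *Itga6* (14.7, against 14.9 and 15.2). Of the 50-base stretches of its longest transcript, 6.5% also occur in *Gm29397*. How reads that match both genes were treated is not given in the sources used here.

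*Itgav* (chromosome 2, 83724397 to 83806916) encodes the alpha V chain, which binds matrix proteins such as vitronectin. Its FPKM was 4.74 and 4.85 in the controls, against 5.47 and 5.66 in Foxa1/2cKO 1 and 2, from 417 to 501 reads. The groups did not overlap and the means differed by 16.0%, the second largest difference after *Itga4*. The 95% Poisson intervals of single samples were as wide as this difference, for example 4.34 to 5.18 FPKM in control 1 and 4.96 to 6.03 in Foxa1/2cKO 1. The log2 fold change was 0.18 (95% interval -0.11 to 0.47) and lay at 0.16 to 0.20 when single samples were left out. Exons of *Itgav* overlap those of the antisense transcript *Gm13684*, and without a strand setting for the gene counts their reads cannot be told apart.

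*Itgal* (chromosome 7, 127296260 to 127335138) encodes the alpha L chain of LFA-1, and it had the highest level of the 10 genes. It was at 256 FPKM in control 1, 252 in control 2, and 252 and 299.6 in Foxa1/2cKO 1 and 2. The difference between the group means of 8.75% thus came from 1 sample. For *Itgal* the log2 fold change was 0.12 (95% interval -0.18 to 0.42), -0.01 without Foxa1/2cKO 2 and 0.24 without Foxa1/2cKO 1.

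*Itgae* (chromosome 11, 73090583 to 73147446) encodes the alpha E chain (CD103). Its FPKM was 7.96 and 8.04 in the controls, from 545 and 499 reads. Foxa1/2cKO 1 was at 11.3 from 556 reads and Foxa1/2cKO 2 at 4.85 from 246 reads. The controls were equal within counting error, and the 2 Foxa1/2cKO samples differed 2.32-fold, beyond their 95% Poisson intervals of 10.4 to 12.2 and 4.26 to 5.50 FPKM. A difference between the Foxa1/2cKO samples at least as large on the log2 scale was seen in 3.29% of all genes tested. The group means were 8.001 and 8.06 FPKM, and the log2 fold change of -0.09 had a 95% interval of -1.04 to 0.86. It was 0.45 without Foxa1/2cKO 2 and -0.62 without Foxa1/2cKO 1.

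*Icam2* (chromosome 11, 106377656 to 106388075) encodes a ligand of LFA-1 that thymocytes themselves carry. Its FPKM was 84.3 and 76.6 in the controls, against 62.6 and 106 in Foxa1/2cKO 1 and 2. It split the Foxa1/2cKO samples the other way round from *Itgae* and *Itgb7*, with the low value in the first and the high value in the second. A gap between these samples as large as the 0.75 of *Icam2* on the log2 scale was seen in 6.78% of all genes tested, and one as large as that of *Itgb7* (-0.69) in 7.89%. For *Icam2* the log2 fold change was 0.02 (95% interval -0.66 to 0.70), -0.35 without Foxa1/2cKO 2, 0.39 without Foxa1/2cKO 1 and -0.05 without control 2. It was -0.01 when rescaled to the reads on listed genes.

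*Cd44* (chromosome 2, 102811141 to 102901665), which is high on early progenitors and on memory T cells and low at the DP stage, was at 6.78 and 6.07 FPKM in the controls. The values were 7.09 and 4.78 in Foxa1/2cKO 1 and 2, from 300 to 574 reads over the samples. The 2 Foxa1/2cKO samples again lay on either side of the controls. The log2 fold change was -0.12 (95% interval -0.63 to 0.39), 0.13 without Foxa1/2cKO 2 and -0.36 without Foxa1/2cKO 1.

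Counted together, 5 of the 10 genes (*Itga4*, *Itgav*, *Itga6*, *Itgb1* and *Itgb2*) had both Foxa1/2cKO samples above both controls, against 18.9% of all genes tested, and 0 had both below, against 17.8%. Rescaled to the reads on listed genes, a choice made after the data were seen, 3 of the 10 (*Itga4*, *Itgav* and *Itgb2*) were above, against 15.8% of all genes, and 0 below, against 21.9%. Counted lengths exceeded 5000 bases in 5 of the 10 genes, of which *Itga4*, *Itgav* and *Itga6* were among those higher and *Itgal* and *Cd44* overlapped. The genes share their 4 samples and are not replicates. The median log2 fold change of the 10 genes was 0.09, and 0.01 over all genes tested. By single sample, Foxa1/2cKO 1 was above both controls in 8 of the 10 genes and below both in 1, and Foxa1/2cKO 2 was above in 7 and below in 3. The share of all genes tested that lay so was not taken for single samples. These counts are therefore not read as a result about the 10 genes. The median size of the difference between the 2 Foxa1/2cKO samples was 0.20 on the log2 scale for the 10 genes and 0.20 for all genes, against 0.02 and 0.08 between the controls.

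**Figure D2:**
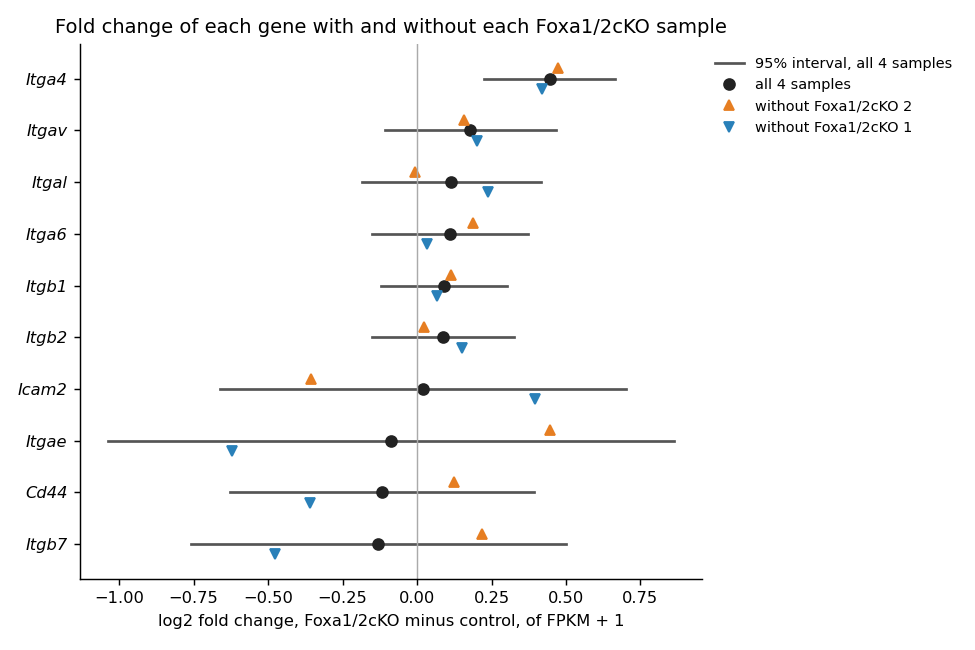
Log2 fold change of FPKM + 1, Foxa1/2cKO minus control (horizontal axis), of the 10 genes, with all 4 samples (black point, 95% interval as a line) and with each Foxa1/2cKO sample left out (triangles). The *Itga4* values stay between 0.42 and 0.47, while those of *Itgae*, *Itgb7*, *Icam2*, *Cd44* and *Itgal* change sign.

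The genes that split the Foxa1/2cKO samples moved beside markers of other stages. *Itgae*, *Itgb7* and *Cd44* were at their lowest in Foxa1/2cKO 2, the sample in which all 5 cycling genes were at their lowest (*Mki67* at 32.5 FPKM, against 89.3 and 93.3 in the controls and 112 in Foxa1/2cKO 1). In the same sample *Ccr7*, a chemokine receptor of maturing SP cells, was at 39.1 FPKM, against 82.5 and 91.7 in the controls and 86.9 in Foxa1/2cKO 1. The mature SP genes did not all move alike. *Ccr4* of the same list was at its highest there (104 FPKM, against 82.5 and 71.5 in the controls and 59.55 in Foxa1/2cKO 1). A list of 5 genes of the DN and early T stages summed to 22.95 and 24.7 FPKM in the controls, against 18.7 and 7.76 in Foxa1/2cKO 1 and 2. *Icam2*, *Itgal*, *Itgb2* and *Itgav* were at their highest in Foxa1/2cKO 2. So was *Cd8b1* of the gate (974 FPKM, against 592 and 614 in the controls and 668 in Foxa1/2cKO 1). In the list of gate and DP genes, *Rag1* was instead highest in Foxa1/2cKO 1 (449.5 FPKM, against 368.3 in Foxa1/2cKO 2). *Cd3e* was highest in control 2 (396.4, against 396.1 in Foxa1/2cKO 2), and the rest of that list in Foxa1/2cKO 2. Between the 2 Foxa1/2cKO samples *Itga4* and *Itgav* differed by 4.01% and 3.39%, *Itgb1* 1.035-fold, and the cycling genes 3.29-fold by their sum. The part of cycling and of these stages in the integrin values, those of *Itga4* and *Itgav* included, was not tested.

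Markers of other cells were also lower in Foxa1/2cKO 2 than in Foxa1/2cKO 1, by the sum of each of 6 lists. Summed FPKM of 6 B cell genes, led by *Cd79b* and *Cd79a*, was 76.2 and 50.6 in the controls, against 104 and 54.4 in Foxa1/2cKO 1 and 2. For 8 myeloid genes, led by *Lyz2* and *Mpeg1*, it was 43.8, 32.4, 44.6 and 24.8 in the same order, and for 6 dendritic cell genes 9.92, 4.75, 12.4 and 7.29. The lists of erythroid and platelet genes, of NK and innate-like genes and of epithelial and stromal genes summed to between 1.52 and 6.98 FPKM in every sample, and *Hba-a1*, *Hbb-bs*, *Hbb-bt* and *Ppbp* were listed at 0 in all. Of the 10 genes, *Itgae*, *Itgb7*, *Cd44*, *Itga6*, *Itga4* and *Itgb1* were also lower in Foxa1/2cKO 2 than in Foxa1/2cKO 1. *Itgb2*, *Itgal*, *Itgav* and *Icam2* were higher. Several of the 10 genes are known to be expressed by such cells, which a sort on CD4, CD8 and CD69 would remove, and their part in the differences was not tested.

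**Figure D3:**
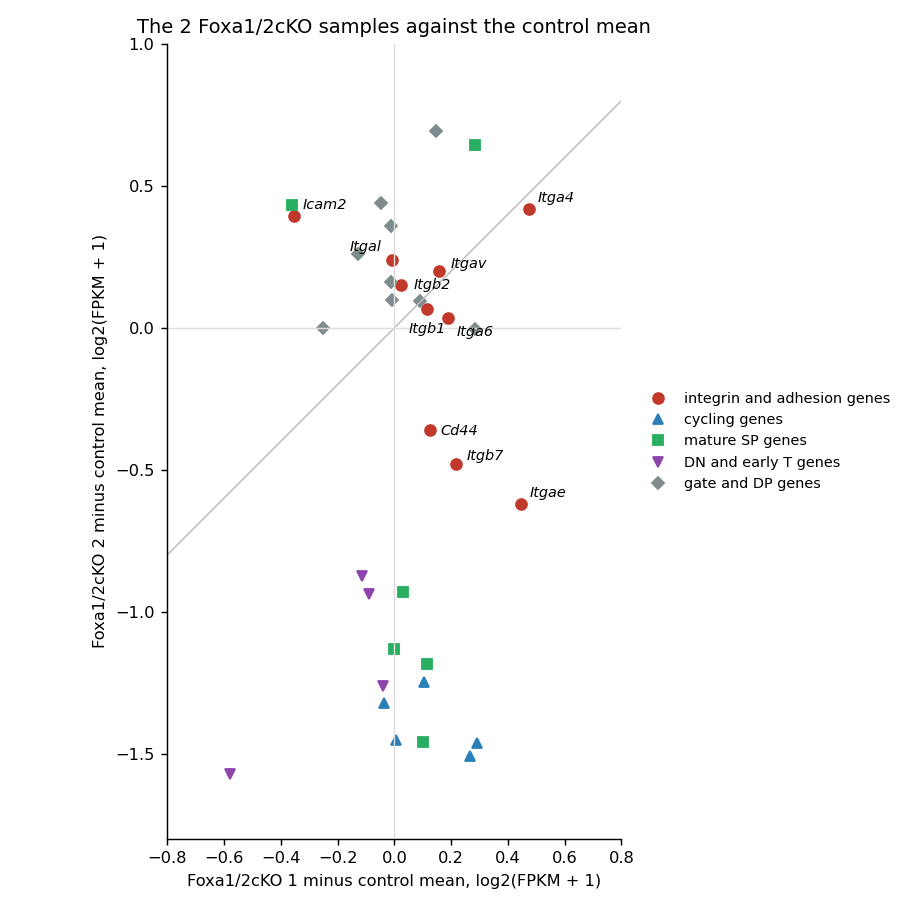
Difference of each Foxa1/2cKO sample from the control mean on log2(FPKM + 1), with Foxa1/2cKO 1 on the horizontal and Foxa1/2cKO 2 on the vertical axis, for the 10 genes (red, named) and for the tested genes of 4 marker lists. Points on the diagonal moved alike in both samples: *Itgb1*, *Itga4* and *Itgav* lie near it. *Itgae*, *Itgb7* and *Cd44* lie below it on the side of the cycling genes, and *Itga6* lies below it by less. *Icam2*, *Itgal* and *Itgb2* lie above it.

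Since a dimer needs both chains, the share of each chain was taken within a sample, which does not depend on the scaling between samples. Of the summed FPKM of the 3 beta chains, *Itgb2* made up 69.9% and 69.8% in the controls, against 67.7% and 74.4% in Foxa1/2cKO 1 and 2. *Itgb7* made up 14.6% and 14.7% in the controls, against 16.3% and 9.999% in Foxa1/2cKO 1 and 2. The *Itgb1* share hardly moved, between 15.5% and 16.0% in the 4 samples. Thus the shift between the 2 Foxa1/2cKO samples lay between *Itgb2* and *Itgb7*, with the controls in the middle.

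Of the 5 alpha chains, *Itgal* held most of the summed FPKM, 83.8% and 83.3% in the controls, against 79.5% and 84.3% in Foxa1/2cKO 1 and 2. The *Itga4* share was 7.21% and 7.45% in the controls, against 9.85% and 8.46% in Foxa1/2cKO 1 and 2, a difference between the means of 1.83 percentage points, or 1.14 without Foxa1/2cKO 1 (exact two-sided permutation p = 0.333, the smallest that 2 against 2 samples can give). *Itgae* held 2.61% and 2.66% in the controls, against 3.55% and 1.37% in Foxa1/2cKO 1 and 2. *Itga6* and *Itgav* together made up at most 7.11% in any sample. Of the other 7 chain shares, only that of *Itgb1* gave the same p of 0.333, on a difference of 0.303 percentage points that was 0.0834 without Foxa1/2cKO 1 and 0.522 without Foxa1/2cKO 2, and the rest overlapped between groups.

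The ratio of partners within a sample followed from these levels. *Itga4* to *Itgb1* was 0.420 and 0.437 in the controls, against 0.555 and 0.553 in Foxa1/2cKO, without overlap. *Itga4* to *Itgb7* was 0.446 and 0.463 in the controls, against 0.548 and 0.862 in Foxa1/2cKO 1 and 2, where *Itgb7* was low. *Itgae* to *Itgb7* was 0.162 and 0.165 in the controls, against 0.197 and 0.139 in Foxa1/2cKO 1 and 2. These 2 genes split the samples in the same direction, and *Itgae* more than *Itgb7*. *Itgal* to *Itgb2*, the LFA-1 pair, stayed between 1.06 and 1.15.

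**Figure D4:**
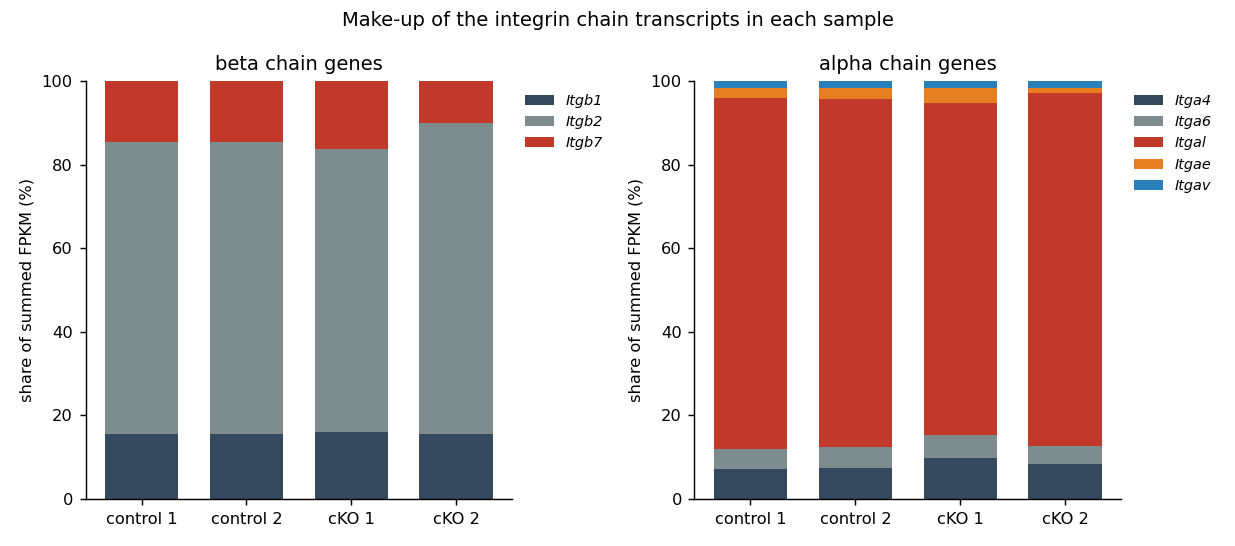
Share (%) of each gene in the summed FPKM of the 3 beta chain genes (left) and the 5 alpha chain genes (right) in each of the 4 samples, where cKO stands for Foxa1/2cKO. *Itgb2* and *Itgal* hold most of the transcripts in every sample, and the *Itgb7* share is 9.999% in Foxa1/2cKO 2 against 14.6% to 16.3% elsewhere.

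Beyond these 10 genes, 18 other integrin subunits were listed, of which 5 passed the filter on low values. None of the 5 passed the adjusted or the unadjusted threshold in limma, and *Itgb6* was listed at 0 in all samples. In 0 of the 5 both Foxa1/2cKO values were above the controls and in 2 both were below. The shares over all genes tested were 18.9% and 17.8%, and the median log2 fold change of the 5 was -0.09. The most abundant was *Itgb3*, the beta chain of the platelet fibrinogen receptor and a partner of alpha V, at 17.3 and 19.0 FPKM in the controls, against 15.0 and 6.36 in Foxa1/2cKO 1 and 2 (log2 fold change -0.82, unadjusted p = 0.0848 from limma). Its low value was in the sample in which *Itgae* and *Itgb7* were low, while *Itgav* was not low there. *Itga5*, *Itgax* and *Itga10* had unadjusted p of 0.405 to 0.629 from limma.

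Of 38 genes that activate integrins or tie them to actin, 32 were tested. From limma 0 had an adjusted p under 0.05, and 3 had an unadjusted p under 0.05, 2 higher and 1 lower in Foxa1/2cKO, against 4.55% of all genes tested. *Stk4*, a kinase downstream of Rap1 in LFA-1 activation, was at 112 and 108 FPKM in the controls, against 125 and 143 in Foxa1/2cKO. *Lims1*, an adaptor of the integrin-linked kinase, was at 33.0 and 31.9 in the controls, against 37.1 and 46.6 in Foxa1/2cKO. *Ptk2*, focal adhesion kinase, was at 2.50 and 2.79 in the controls, against 1.82 and 1.72 in Foxa1/2cKO. Talin (*Tln1*), which binds the beta chain tail, was at 161 and 147 in the controls, against 175 and 182 in Foxa1/2cKO (unadjusted p = 0.0701 from limma). In 12 of the 32 genes both Foxa1/2cKO values were above the controls and in 3 both were below, against 18.9% and 17.8% of all genes tested, and the median log2 fold change was 0.07.

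Of 29 other adhesion receptors and ligands, 18 were tested, with 0 past the adjusted and 3 past the unadjusted threshold of limma, all 3 higher in Foxa1/2cKO. *Cd226* was at 14.9 and 14.4 FPKM in the controls, against 17.8 and 20.4 in Foxa1/2cKO, and *Cd96*, which shares a ligand with it, was at 73.3 and 73.0 in the controls, against 89.5 and 129.9 in Foxa1/2cKO. *Emb* was at 63.4 and 69.2 in the controls, against 72.5 and 79.9 in Foxa1/2cKO (unadjusted p = 0.104 from limma). In 6 of the 18 both Foxa1/2cKO values were above the controls and in 2 both were below, beside the same 18.9% and 17.8%, and the median log2 fold change was 0.08. Of 8 tetraspanins, which associate with integrins in the membrane, 7 were tested and 0 passed either threshold of limma. In 0 of the 7 both Foxa1/2cKO values were above the controls and in 1 both were below, beside the same shares. The median log2 fold change of the 7 was -0.14. *Cd81* was lower in both Foxa1/2cKO samples (79.6 and 85.6, against 93.0 and 88.8 FPKM in the controls), and *Tspan32*, *Cd82* and *Cd9* overlapped. Without Foxa1/2cKO 1, 27 of the 62 genes of these 4 lists had an adjusted p under 0.05 from limma, as had 2559 of all genes tested, and without Foxa1/2cKO 2 it was 0 and 19.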

How the data were processed

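RNA of CD69+DP thymocytes was sequenced in 2 control and 2 Foxa1/2cKO samples. As the study's methods state, reads were aligned to mm10 with RefSeq genes and counted with HTSeq in union mode, and the submitters' processing notes list TopHat, Picard and DESeq2. The authors deposited 1 FPKM value per gene and sample, and the step from counts to FPKM is not given in the sources used here. The values are whole reads per length on per-sample totals of 10796528 to 14968316.

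Whole reads, within 0.01 of a read plus rounding, were recovered from the value steps for 16067 of the 16069 genes above 0. Counted lengths are the lengths that give whole reads in all samples, set towards the annotated length where a multiple also did. Gene positions are from GENCODE M21, of the same assembly.

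Fold changes were fitted with limma 3.58.1 (R 4.3.3) on log2(FPKM + 1) with a mean-variance trend, for the 10776 genes at 1 FPKM or more in 2 or more samples, with Benjamini-Hochberg adjustment at 0.05. This scale understates changes of low genes. There were 2 residual and 2.69 prior degrees of freedom. Shares were compared by exact permutation tests (scipy 1.17.1).

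The genes and lists were chosen with earlier results of these data known. Named are the 10 genes, up to 4 genes with the smallest p of each pathway list, genes of the sort gate list and the 2 highest of each marker list, and any others were chosen after their values were seen, among them *Ccr7*, *S1pr1*, *Il7r*, *Klf2*, *Ccr4*, *Cerkl* and the genes listed at 0. A gene that the rule names is not reported here. Alternatives were a pseudocount of 0.1, no filter, upper-quartile scaling, a replicate block, limma-voom on recovered reads, a robust variance prior, shares of reads, leaving out each sample and, added after seeing the data, rescaling to the reads on listed genes.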

Additional observations from a re-analysis of the deposited data

How the results depend on the processing

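With 0.1 as pseudocount, all genes unfiltered, upper-quartile scaling, limma-voom on recovered reads or a robust variance prior, each of the 10 genes kept its direction and none had an adjusted p under 0.05. The 1 gene called over all genes became 0 with a pseudocount of 0.1, with no filter, with limma-voom and with FPKM rescaled to the reads on listed genes, and 0 to 2559 with each sample left out (0 without either control, 19 without Foxa1/2cKO 2 and 2559 without Foxa1/2cKO 1, where the lone sample is assumed to vary like the controls). The pathway genes called were 0 to 27. Fitted with the replicate number as a block, 1 gene was called and 378 had an unadjusted p under 0.05, against 490. The deviations of same-numbered samples had a correlation of -0.0587, and no label says that a number marks a shared litter or sort. With each sample left out, log2 fold changes ranged from 0.42 to 0.47 for *Itga4*, 0.07 to 0.12 for *Itgb1*, 0.02 to 0.15 for *Itgb2*, 0.16 to 0.20 for *Itgav* and 0.03 to 0.19 for *Itga6*. They changed sign for *Itgb7* (-0.48 to 0.22), *Itgal* (-0.0075 to 0.24), *Itgae* (-0.62 to 0.45), *Icam2* (-0.35 to 0.39) and *Cd44* (-0.36 to 0.13). Rescaled to the reads on listed genes, *Icam2* was at -0.0141, the 9 others kept their direction and none had an adjusted p under 0.05, and the median over all genes was -0.03. With each Foxa1/2cKO sample left out, the shares of *Itgb2*, *Itgb7*, *Itga6*, *Itgal* and *Itgae* differed from the controls in opposite directions. By recovered reads the *Itga4* share of the alpha chains differed by 2.96 percentage points (exact permutation p = 0.333), which weights chains by length. Depth limits mainly *Itgae*, *Itgav* and *Cd44*, with the fewest reads.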

Other observations

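Ligands of these integrins were also in the table, chosen here for that role after their values were seen. *Vcam1*, the ligand of alpha 4 beta 1, was at 5.98 and 3.86 FPKM in the controls, against 3.76 and 0.822 in Foxa1/2cKO 1 and 2, with the groups just apart. *Icam1*, a second ligand of LFA-1 beside *Icam2*, was at 19.1 and 15.2 in the controls, against 15.5 and 17.9 in Foxa1/2cKO, without the split that *Icam2* showed. *Cdh1*, which encodes E-cadherin, the ligand of alpha E beta 7, was at 0.451 to 1.15 FPKM, and *Madcam1*, the ligand of alpha 4 beta 7, at 0.156 to 0.652, both under the filter on low values.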
